A study of Mus musculus with 40 samples.

Results

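The argonaute and microRNA processing genes examined here are 10 genes given by symbol, of the 23420 gene symbols counted in each library: Eif2c1, Eif2c2, Eif2c3 and Eif2c4 (today's Ago1 to Ago4), Dgcr8, Xpo5, Dicer1, Tnrc6a, Tnrc6b and Tnrc6c. All 10 were found in the count files, and all 10 passed the filter on low counts in both kinds of library. The rule is a list of symbols and uses no measured value, but the list was chosen with earlier results of these data known.

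RNA was counted in 20 hearts of FVB/N mice, all labelled male and 12 weeks old, of which 3 were non-transgenic (ntg) with a sham operation, 3 carried a miR-378a transgene (TG) with a sham operation, 7 were ntg after 2 weeks of transverse aortic constriction (TAC), and 7 were TG after the same constriction. TAC narrows the aorta and loads the left ventricle with pressure. The promoter that drives the transgene is not given in the sources used here. The samples were heart pieces that lacked the right ventricle, so they hold a mixture of cell types. From each heart 1 library was made of polyadenylated RNA (mRNA) and 1 of RNA that came down with an antibody to Ago2 (RISC, the RNA-induced silencing complex).

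MicroRNAs are cut from a primary transcript in the nucleus by Drosha with its RNA-binding partner Dgcr8, carried to the cytoplasm by Xpo5 and cut again by Dicer1. An argonaute protein then holds the mature strand and pairs with target messages, and the GW182 proteins encoded by Tnrc6a, Tnrc6b and Tnrc6c link argonaute to the enzymes that shorten poly(A) tails. In the mouse only Ago2 among the argonautes is known as an efficient slicer, and Dicer1 is required in heart muscle, where its loss leads to cardiomyopathy.

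Gene counts per library came to 9.98 to 25.5 M in mRNA (mean 15.1 M) and 7.55 to 25.4 M in RISC (mean 17.6 M), of which the ribosomal RNA precursor Rn45s took 48.5% to 62.3% in RISC and 5.34% to 11.3% in mRNA. The shallowest RISC libraries were those of ntg TAC hearts 6 (7.55 M) and 5. Counts of the 10 genes ran from 58 for Dgcr8 in a RISC library of an ntg TAC heart to 8562 for Tnrc6b in another. Summed cardiomyocyte markers in mRNA lay at 94907 to 101439 CPM (gene counts brought to the same library size) in ntg sham hearts and apart from these, at 69004 to 87166 CPM, in the 3 other groups. Summed atrial markers in mRNA ran from 352 to 5987 CPM within ntg sham hearts. Their group means ran from 1248 CPM in TG sham to 5322 CPM in TG TAC hearts. Whether atrial tissue was carried along was not tested. Against the labels, Xist lay at 117 to 142 CPM in the 6 sham mRNA libraries and at 1.03 to 3.48 CPM in the 14 TAC libraries, and 4 Y-linked genes together lay at 0.216 to 4.88 CPM in sham and 79.9 to 122 CPM in TAC. The operation and this difference in sex-linked RNA therefore cannot be told apart in any comparison of TAC with sham, while TG and ntg hearts of 1 operation did not differ in this way. In whole tissue, fewer cells of a type and less RNA per cell cannot be told apart either.

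Eif2c1, Eif2c3 and Eif2c4 lie side by side on the minus strand of chromosome 4 in the mm10 gene models deposited with the data. Eif2c3 spans 126340678 to 126429542, Eif2c1 spans 126435013 to 126468421 and Eif2c4 spans 126489543 to 126533458. Eif2c2 is apart from them, on chromosome 15 from 73101625 to 73184947, also on the minus strand. The windows of 250 bases before the start sites of the 3 neighbours are shown because these genes share a locus and yet, as described below, Eif2c1 alone of the 3 was called lower in TG mRNA (sequences from RefSeq, build GRCm38.p6, minus strand, 5′ to 3′). Capitals mark the GC box, GGGCGG or its other strand CCGCCC, which 32.7% of 32851 such windows hold on either strand. Overlapping copies are written as 1 capital run.
Ago1 (Eif2c1), chr4:126468584-126468833: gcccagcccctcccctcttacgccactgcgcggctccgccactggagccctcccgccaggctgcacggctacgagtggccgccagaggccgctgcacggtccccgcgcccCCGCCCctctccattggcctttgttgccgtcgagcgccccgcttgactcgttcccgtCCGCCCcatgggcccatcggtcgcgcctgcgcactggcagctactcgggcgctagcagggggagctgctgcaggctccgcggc
Ago3 (Eif2c3), chr4:126429543-126429792: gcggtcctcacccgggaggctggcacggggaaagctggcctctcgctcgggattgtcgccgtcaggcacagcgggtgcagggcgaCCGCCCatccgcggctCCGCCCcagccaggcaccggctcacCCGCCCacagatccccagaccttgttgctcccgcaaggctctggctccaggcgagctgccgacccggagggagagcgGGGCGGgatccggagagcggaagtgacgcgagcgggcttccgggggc
Ago4 (Eif2c4), chr4:126533459-126533708: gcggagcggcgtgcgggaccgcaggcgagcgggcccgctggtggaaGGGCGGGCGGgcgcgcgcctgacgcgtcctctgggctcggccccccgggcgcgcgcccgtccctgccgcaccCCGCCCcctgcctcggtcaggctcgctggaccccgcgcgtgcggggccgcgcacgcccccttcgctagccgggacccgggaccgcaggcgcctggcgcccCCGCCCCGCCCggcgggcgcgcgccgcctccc
The Eif2c1 window holds 2 GC boxes, the Eif2c3 window 4 and the Eif2c4 window 5. Their GC contents are 74.4%, 73.6% and 85.6%, against a median of 52.4% over all windows, and they hold 28, 27 and 46 CG dinucleotides against a median of 6. None of the 3 holds the letters TATAAA or their other strand, which 12.4% of windows do. The RefSeq start that the Eif2c1 window precedes lies 162 bases from the deposited start of the gene.

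Levels were compared between genes per kilobase of exon, in the 3 ntg sham hearts. In mRNA, Tnrc6c (10.2 ± 0.607 CPM per kilobase, SD), Tnrc6a (9.36 ± 0.908), Xpo5 (9.14 ± 0.675) and Eif2c2 (8.56 ± 0.287) were highest. Neighbours among these 4 did not differ beyond their SDs. Below them came Tnrc6b (7.74 ± 0.495 CPM per kilobase), Eif2c1 (5.25 ± 0.486), Dicer1 (3.84 ± 0.0867), Dgcr8 (2.69 ± 0.220), Eif2c4 (2.18 ± 0.185) and Eif2c3 (1.56 ± 0.0865), and here each neighbour lay outside the other's SD. In RISC the order began with Eif2c2 (19.3 ± 3.68 CPM per kilobase) and Tnrc6b (17.8 ± 1.76), whose SDs overlapped, followed by Tnrc6c (13.1 ± 1.16) and Tnrc6a (11.9 ± 0.538), which overlapped as well. Dicer1 (6.61 ± 0.302 CPM per kilobase), Eif2c1 (5.58 ± 0.554), Xpo5 (5.09 ± 0.166), Eif2c3 (2.89 ± 0.406), Eif2c4 (2.81 ± 0.555) and Dgcr8 (1.89 ± 0.215) followed. CPM were scaled within each kind of library and RISC CPM include Rn45s, so mRNA and RISC levels are on different scales.

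Eif2c1, which encodes Ago1, was the only member called lower in mRNA of TG hearts by edgeR, under both operations. In RISC it was called lower after TAC, and Tnrc6c, described further on, in sham hearts. In mRNA of sham hearts it lay at 40.3, 33.5 and 37.4 CPM in the 3 ntg hearts and at 30.1, 26.6 and 25.2 CPM in the 3 TG hearts. In mRNA of TAC hearts it lay at 39.8 to 47.3 CPM (median 44.4) in the 7 ntg hearts and at 30.4 to 38.4 CPM (median 33.0) in the 7 TG hearts. Every TG heart lay below every ntg heart of the same operation. Over all tested genes, groups that do not overlap were found for 34.6% in sham and 8.11% in TAC. The log2 fold change, TG against ntg, was −0.44 (SE 0.10, edgeR adjusted p = 0.0024) in sham and −0.39 (SE 0.06, edgeR adjusted p = 5.77e-05) in TAC, which are mean levels 26.5% and 23.5% lower. The difference between these effects was 0.05 (SE 0.11, 95% interval −0.17 to 0.28, edgeR adjusted p = 0.920).

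Eif2c1 was 1 of 10 members called in mRNA in each of these comparisons, where 18.6% of all tested genes were called in sham and 25.3% in TAC. The median log2 fold change of the 10 genes was −0.05 in sham and 0.02 in TAC, beside −0.01 and −0.00 over all tested genes. Summed adipocyte markers, 6 genes of which none was at 0 throughout a group, ran with the groups in sham mRNA, at 106 to 157 CPM in ntg and 3.14 to 8.52 CPM in TG hearts. With the adipocyte level as a covariate the sham fold change of Eif2c1 was −0.39 and no longer called (edgeR adjusted p = 0.0771), while it remained called in TAC. Of 7 cardiomyocyte markers, 4 were called lower in TG sham mRNA. In TAC mRNA 5 of 6 macrophage markers and 4 of 5 endothelial markers were called lower in TG hearts. Summed macrophage markers lay there at 284 to 326 CPM in ntg and 222 to 302 CPM in TG hearts, and summed endothelial markers at 990.2 to 1064 CPM and 843 to 932 CPM. The part of these cell types in the values of Eif2c1 was not tested.

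Eif2c1 in RISC libraries of TAC hearts was lower in TG as well. It lay at 50.8 to 71.8 CPM (median 63.1) in ntg and at 33.0 to 50.04 CPM (median 42.5) in TG hearts, with no overlap, as found for 3.84% of tested genes. The log2 fold change was −0.55 (SE 0.09, edgeR adjusted p = 4.42e-05), and Eif2c1 was 1 of 10 members called where 15.2% of tested genes were. In sham RISC it lay at 34.9, 41.5 and 41.8 CPM in ntg and 30.9, 31.4 and 30.9 CPM in TG hearts. These groups did not overlap, as for 25.4% of tested genes, but the log2 fold change of −0.34 (SE 0.14) was not called (edgeR adjusted p = 0.150). The RISC libraries of TAC hearts also differed in how level ran with transcript length. The slope of log2 CPM on log2 exon length lay at 0.0189 to 0.129 in ntg and −0.110 to 0.0126 in TG hearts. With this slope as a covariate the TAC fold change of Eif2c1 was −0.22 (edgeR adjusted p = 0.559). Calls over all genes went from 2050 to 175 in that fit. The slopes did not overlap between the genotypes, so the fit cannot well tell slope and genotype apart. The part of the slope in the result was not tested further.

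After TAC, Eif2c1 was higher than after sham. In mRNA the log2 fold change, TAC against sham, was 0.24 (SE 0.08, edgeR adjusted p = 0.0407) in ntg hearts, where the groups overlapped (20.6% of tested genes did not), and 0.30 (SE 0.08, edgeR adjusted p = 0.0187) in TG hearts, where they did not, as for 12.1% of tested genes. It was 1 of 10 members called in each, beside 17.7% of tested genes in ntg and 13.1% in TG. The ntg call was lost without ntg sham heart 2 or 3 or ntg TAC heart 4, 5, 6 or 7 (edgeR adjusted p 0.0576 to 0.247) and with the adipocyte covariate (adjusted p = 0.130). In the same comparison 6 of 7 cardiomyocyte markers were called lower after TAC, whose part was not tested. The TG call was lost without TG sham heart 2 (edgeR adjusted p = 0.0799) or 3 (0.0973).

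In RISC the log2 fold change of Eif2c1 after TAC was 0.65 (SE 0.12, edgeR adjusted p = 0.000381) in ntg hearts and 0.44 (SE 0.12, edgeR adjusted p = 0.0149) in TG hearts. All 7 TAC hearts lay above all 3 sham hearts in both genotypes, as 11.1% of tested genes did in either direction in ntg and 12.8% in TG. The ntg value was 0.39 (edgeR adjusted p = 0.168) with the length slope as a covariate, and the TG call was lost without any 1 of the 3 TG sham hearts (edgeR adjusted p 0.0647 to 0.0688).

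**Figure D1:**
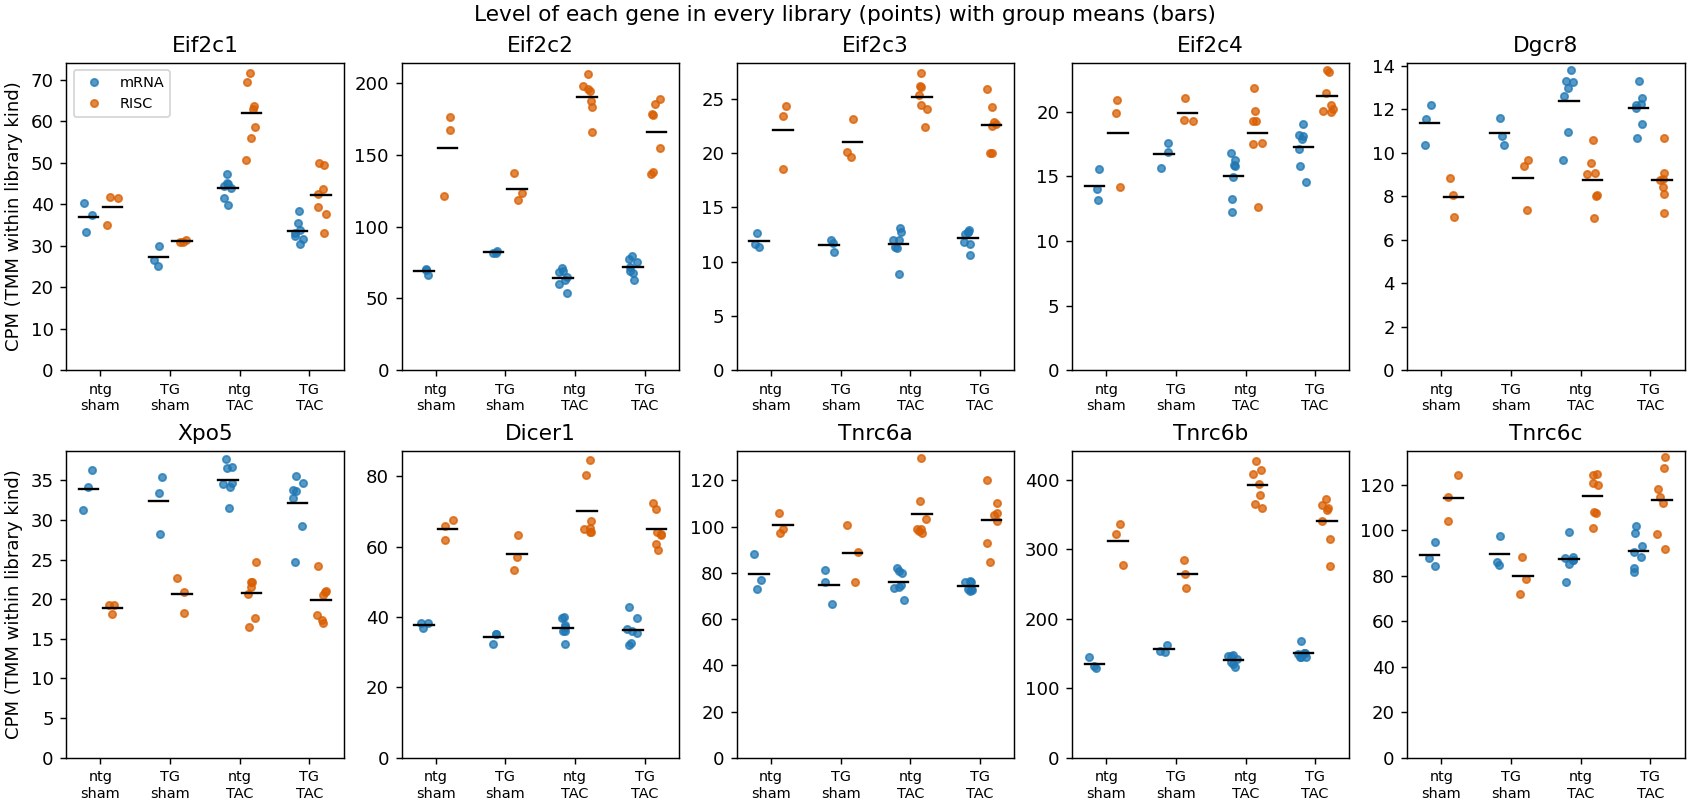
Level of each of the 10 genes in CPM (vertical axes, scaled within each kind of library, from 0) in every library, with mRNA in blue, RISC in orange and black bars for group means; 3 hearts per sham and 7 per TAC group. Eif2c1 points of TG hearts lie below those of ntg hearts of the same operation in both kinds of library.

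Eif2c2, which encodes the Ago2 protein that the antibody captured, had no call between genotypes, and its estimates had opposite signs in the 2 kinds of library. In sham mRNA it lay at 66.2, 69.4 and 70.7 CPM in ntg and 83.1, 81.3 and 81.6 CPM in TG hearts. The groups were apart, as for 34.6% of tested genes, and the log2 fold change was 0.25 (SE 0.09, edgeR adjusted p = 0.0622). In TAC mRNA it lay at 53.5 to 71.3 CPM (median 64.8) in ntg and 62.9 to 79.4 CPM (median 71.8) in TG hearts, which overlapped, with a log2 fold change of 0.16 (SE 0.06, edgeR adjusted p = 0.0535). DESeq2 called the sham value (adjusted p = 0.0496), and the fit with the adipocyte covariate called the TAC value (edgeR adjusted p = 0.0377).

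In RISC, Eif2c2 lay at 121.0, 176.0 and 167 CPM in ntg sham hearts and 118, 124 and 137 CPM in TG sham hearts. In TAC hearts it lay at 166 to 206 CPM (median 194) in ntg and 136 to 189 CPM (median 177) in TG. The genotypes overlapped under both operations. The log2 fold changes of −0.29 (SE 0.13, edgeR adjusted p = 0.216) and −0.20 (SE 0.09, edgeR adjusted p = 0.118) were not called. After TAC, Eif2c2 in RISC was called higher in TG hearts (log2 fold change 0.39, SE 0.11, edgeR adjusted p = 0.0261). In ntg hearts the value was 0.30 (SE 0.11, edgeR adjusted p = 0.0888). The TG call was lost without TG sham heart 1 or 2 or TG TAC heart 3, 4 or 7 (edgeR adjusted p 0.05001 to 0.141).

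Eif2c3 and Eif2c4, which encode Ago3 and Ago4, were called in no comparison within a kind of library. Eif2c3 means ran from 11.5 to 12.1 CPM over the 4 groups in mRNA and from 21.0 to 25.1 CPM in RISC. Eif2c4 means ran from 14.2 to 17.2 CPM in mRNA and from 18.3 to 21.2 CPM in RISC. The Eif2c4 estimates for TG against ntg in mRNA were 0.23 (SE 0.12, edgeR adjusted p = 0.187) in sham and 0.20 (SE 0.08, edgeR adjusted p = 0.0541) in TAC. The latter was called without ntg TAC heart 3 or 7, or TG TAC heart 4 or 6.

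The make-up of argonaute RNA, as shares of the 4 genes' summed CPM per kilobase, followed these values. In mRNA the Eif2c1 share was 29.9 ± 2.09% (SD, n = 3) in ntg sham, 21.2 ± 1.25% (n = 3) in TG sham, 34.5 ± 1.10% (n = 7) in ntg TAC and 26.5 ± 1.19% (n = 7) in TG TAC hearts. The Eif2c2 share was 48.8 ± 2.35%, 56.3 ± 1.26%, 44.3 ± 1.73% and 49.9 ± 1.21% in the same order. TG and ntg hearts of 1 operation did not overlap in either share. The shares are parts of 1 sum, so a lower Eif2c1 share by itself raises the Eif2c2 share. In CPM, Eif2c2 overlapped between genotypes in TAC mRNA. Non-overlap of such shares was not counted over other genes. In RISC the Eif2c2 share was between 58.3% and 66.9% in all 20 hearts, and the Eif2c1 share was 22.7 ± 1.77% after TAC in ntg hearts and 18.2 ± 1.91% after TAC in TG hearts. Shares were not tested.

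**Figure D2:**
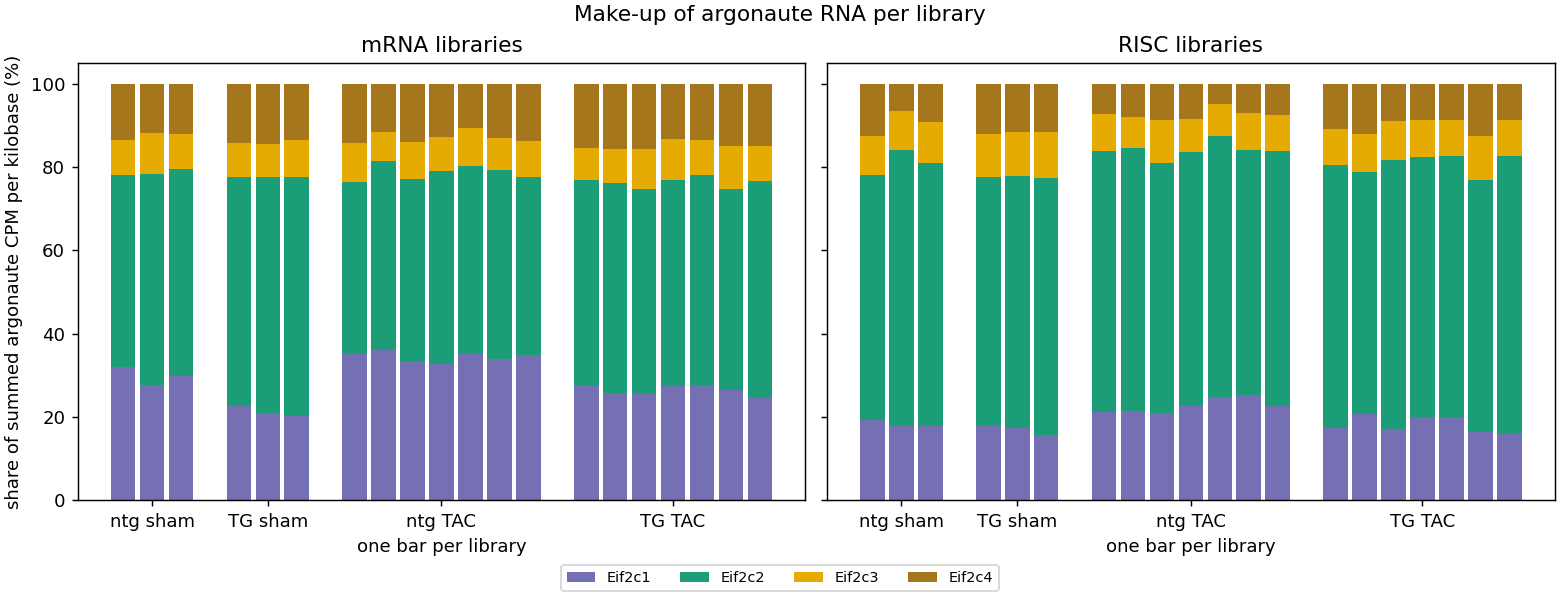
Share of each argonaute gene in the summed argonaute CPM per kilobase (vertical axis, %), 1 bar per library, mRNA left and RISC right. The Eif2c1 part of the mRNA bars is 20.1% to 22.6% in TG sham against 27.8% to 32.0% in ntg sham, and 24.7% to 27.7% in TG TAC against 32.8% to 36.0% in ntg TAC.

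Of the genes for precursor processing, Dgcr8, Xpo5 and Dicer1, none was called between genotypes or operations in either kind of library. Dgcr8 means ran from 10.9 to 12.4 CPM in mRNA and from 7.98 to 8.82 CPM in RISC. Xpo5 means ran from 32.1 to 35.1 CPM in mRNA and 18.9 to 20.7 CPM in RISC, and Dicer1 means from 34.3 to 37.9 CPM and 57.9 to 70.1 CPM. Their intervals show what size could have been missed. For Dicer1 in mRNA of TAC hearts, TG against ntg, the interval was −0.15 to 0.10, and for Dgcr8 in RISC of sham hearts, the widest of the 3 genes for this contrast, −0.20 to 0.49. The Dicer1 mRNA values of sham hearts did not overlap between genotypes, as for 34.6% of tested genes. They lay at 38.3, 38.4 and 36.9 CPM in ntg and 35.2, 35.3 and 32.4 CPM in TG. The log2 fold change was −0.14 (SE 0.10, edgeR adjusted p = 0.350).

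Dgcr8 (chromosome 16, 18253965 to 18289168, minus strand) carries a microRNA gene inside a coding exon. Mir1306 lies at 18284239 to 18284317 in the deposited gene models, and its 2 mature products are shown because any read from that stretch may belong to the microRNA, to its precursor or to the Dgcr8 message. Capitals mark the seed, bases 2 to 8 (RefSeq, GRCm38.p6).
mmu-miR-1306-3p: aCGUUGGCucugguggugaug
mmu-miR-1306-5p: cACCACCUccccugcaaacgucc
Mir1306 was listed at 0 counts in all 40 libraries. It lies wholly within a Dgcr8 exon, so a read inside it falls in more than 1 gene and may be set aside as ambiguous. The 0 therefore does not show that the stretch had no reads. Exons of Dgcr8 also overlap Trmt2a, so that 887 bases of the 4225 bases of Dgcr8 exon are shared with other genes, and a read there falls in more than 1 gene. Mir5113, within an exon of Tnrc6b outside its coding part, was at 0 counts in all libraries too, with the same limit.

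Of the GW182 genes, Tnrc6b and Tnrc6c had calls in RISC libraries, and their changes relative to mRNA are given with the combined model. Tnrc6c fell in TG sham hearts in RISC. It lay at 114, 104 and 124 CPM in ntg and 78.7, 88.3 and 71.9 CPM in TG hearts. These groups did not overlap, as for 25.4% of tested genes. The log2 fold change was −0.52 (SE 0.13, edgeR adjusted p = 0.00873), and Tnrc6c was 1 of 10 members called beside 5.81% of tested genes. The call was lost without ntg sham heart 3 (edgeR adjusted p = 0.0663) or TG sham heart 3 (0.0664). In TAC hearts Tnrc6c in RISC lay at 101 to 125 CPM (median 119.8) in ntg and 91.6 to 132 CPM (median 115) in TG hearts, which overlapped, and the log2 fold change was −0.02 (SE 0.08, edgeR adjusted p = 0.893). The difference between the sham and the TAC effect was 0.50 (SE 0.15) and not called (edgeR adjusted p = 0.166). In mRNA, Tnrc6c means lay between 87.3 and 91.0 CPM in the 4 groups.

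After TAC, 2 of 10 members were called higher in RISC of ntg hearts (5.54% of tested genes were called higher and 10.9% in either direction) and 4 of 10 in RISC of TG hearts (4.72% and 8.56%), and none lower. They were Eif2c1 and Tnrc6b in ntg hearts, and Eif2c1, Eif2c2, Tnrc6b and Tnrc6c in TG hearts. The median log2 fold change of the 10 genes was 0.14 in ntg and 0.19 in TG hearts, beside 0.00 and 0.02 over all tested genes. The length slope, described with Eif2c1, also moved with the operation in RISC of ntg hearts, at −0.0387 to −0.00618 in sham and 0.0189 to 0.129 after TAC. With it as a covariate 0 members were called there, while calls over all genes went from 1470 to 195. These slopes did not overlap, so that fit cannot well tell slope and operation apart. In RISC of TG hearts the slopes overlapped, at −0.0830 to −0.00820 in sham and −0.110 to 0.0126 after TAC, and 4 members were called with the covariate too. The share of all genes called in that fit is not given here. Tnrc6c in TG hearts rose by 0.51 (SE 0.11, edgeR adjusted p = 0.00262) from the 3 low sham values given above, and in ntg hearts the estimate was 0.01 (SE 0.11).

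Tnrc6b in RISC lay at 278, 337 and 322 CPM in ntg sham hearts and 359 to 427 CPM (median 394) in ntg TAC hearts. These groups did not overlap, as for 11.1% of tested genes. Tnrc6b lay at 245, 285 and 264 CPM in TG sham and 275 to 373 CPM (median 356) in TG TAC hearts, which overlapped. The log2 fold changes after TAC were 0.33 (SE 0.10, edgeR adjusted p = 0.0237) in ntg and 0.36 (SE 0.10, edgeR adjusted p = 0.0156) in TG hearts. The ntg call was lost without ntg sham heart 1 or 3 (edgeR adjusted p 0.213 and 0.0569) and with the length slope as a covariate (0.26, edgeR adjusted p = 0.358), and the TG call without TG sham heart 1 or 3 (0.118 and 0.0690). Tnrc6b is the longest of the 10 genes, with 17.5 kilobases of exon.

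Between genotypes Tnrc6b was not called. In RISC of TAC hearts its log2 fold change was −0.20 (SE 0.07, edgeR adjusted p = 0.0572), which passed the threshold with DESeq2 (adjusted p = 0.0246) and with RLE scaling (edgeR adjusted p = 0.0469). In mRNA of sham hearts it was 0.20 (SE 0.07, edgeR adjusted p = 0.0586; DESeq2 adjusted p = 0.0219). Tnrc6a was called in no comparison within a kind of library. Its means ran from 74.2 to 79.4 CPM in mRNA and from 88.6 to 105 CPM in RISC.

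**Figure D3:**
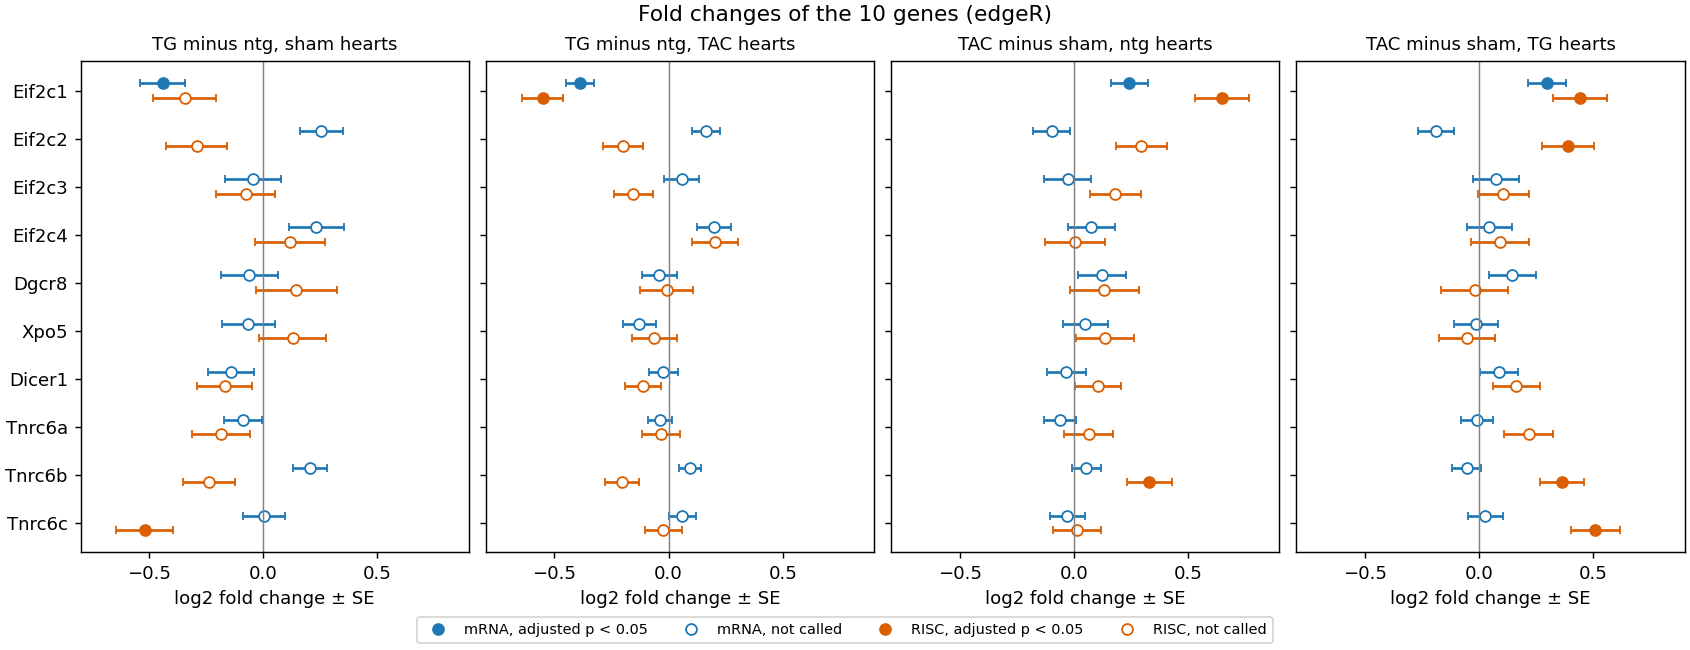
Log2 fold change ± SE (horizontal axes) of each gene for TG minus ntg in sham and in TAC hearts and for TAC minus sham in ntg and in TG hearts, mRNA blue and RISC orange; filled points have an edgeR adjusted p under 0.05. Eif2c1 is called to the left of 0 for TG in mRNA of both operations, at −0.44 and −0.39.

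The transgene effect was also compared between sham and TAC hearts as a difference. By edgeR no member was called in mRNA (0.0849% of tested genes were called) or in RISC (0.342%). At an unadjusted p under 0.05 there were 0 members in mRNA and 1 in RISC, which was Tnrc6c, beside 10.2% of tested genes in each. DESeq2 called 0 members in both, beside 0.516% and 1.32% of the genes to which it gave an adjusted p. For Eif2c2 the difference was −0.09 (95% interval −0.31 to 0.13) in mRNA and 0.09 (−0.22 to 0.40) in RISC.

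In the model of both kinds of library, which did not pair libraries by heart, all 10 messages lay higher in RISC relative to the centre of its scaling. By this scaling the median gene lay at −0.08. The comparison has no input or IgG control. It therefore orders genes within these libraries and does not measure enrichment by Ago2. The log2 difference ran from 0.35 (SE 0.06) for Xpo5 and 0.64 (SE 0.06) for Dgcr8 to 2.22 (SE 0.05) for Eif2c2 and 2.24 (SE 0.04) for Tnrc6b. The values were 2.03 for Eif2c3, 1.91 for Dicer1, 1.47 for Tnrc6a, 1.38 for Eif2c4, 1.36 for Eif2c1 and 1.31 for Tnrc6c. All 10 were called by edgeR (adjusted p at most 2.24e-07), where 82.6% of all tested genes were called in either direction and 38.9% higher. Set against the mRNA library of the same heart, each was above 0 in 20 of 20 hearts. How many of all tested genes were above 0 in every heart was not counted. The lowest single value was 0.03 for Xpo5 in an ntg TAC heart, and the highest 2.88 for Eif2c2 in another.

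The sign for Xpo5 and Dgcr8 depends on the scaling. When libraries were scaled by their total count, Rn45s included, the differences were −0.76 for Xpo5 and −0.47 for Dgcr8, and the median of all genes moved by −1.11. The other 8 stayed above 0. When Rn45s was left out before that scaling, all 10 were above 0.

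**Figure D4:**
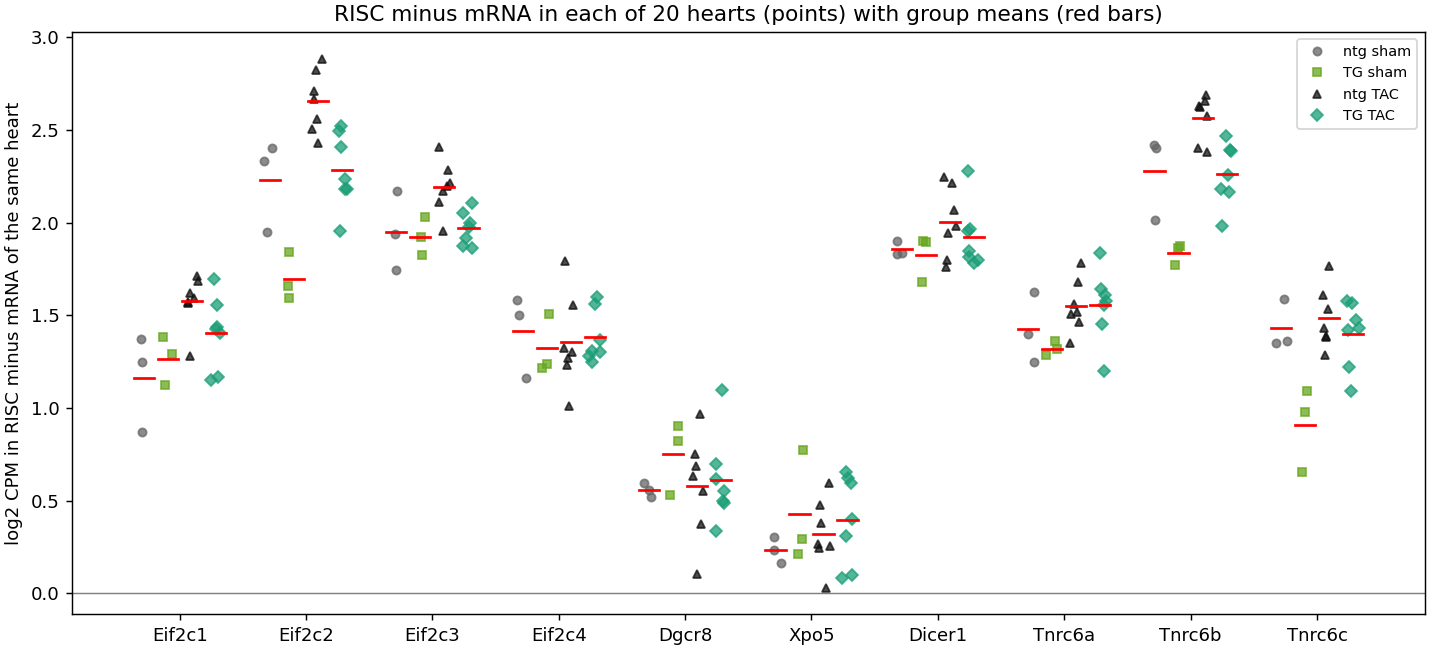
Log2 CPM in the RISC library minus log2 CPM in the mRNA library of the same heart (vertical axis) for each gene, 1 point per heart with red group means. Eif2c2 and Tnrc6b lie highest, and their TG sham hearts (green squares) lie below their ntg sham hearts (grey circles). These groups did not overlap for 18% of genes.

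Long transcripts were higher in RISC in general, and all 10 genes are longer than the median tested gene. Over 14372 genes the difference ran with exon length (Spearman's rho 0.653, across genes of the same 40 libraries, which are not independent replicates). Its median was 1.01 in the 1667 genes over 6 kilobases and −0.22 in the others. The 10 genes measure 3.71 (Xpo5) to 17.5 kilobases (Tnrc6b), against a median of 2.88. By rank, Tnrc6b was higher than 97.9% of genes, Eif2c2 than 97.9%, Eif2c3 than 97.1% and Dicer1 than 96.2%. These genes are longer than 99.9%, 95.5%, 94.7% and 97.9% of genes. Tnrc6a was higher than 91.4% of genes and is longer than 96.4%, and Tnrc6c was higher than 89.0% and is longer than 96.7%. Eif2c4 was higher than 90.3% and is longer than 90.8%, and Eif2c1 was higher than 89.9% and is longer than 93.0%. Xpo5 was higher than 64.9% of genes and is longer than 65.5%, and Dgcr8 was higher than 73.9% and is longer than 73.0%. In the bins of genes with median lengths of 6.96 and 9.34 kilobases, the upper quartiles of the difference were 1.44 and 1.64. Tnrc6b, Eif2c2, Eif2c3 and Dicer1 lay above both, and Tnrc6a, Tnrc6c, Eif2c4 and Eif2c1 did not. The part of length in the members' differences was not tested further.

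**Figure D5:**
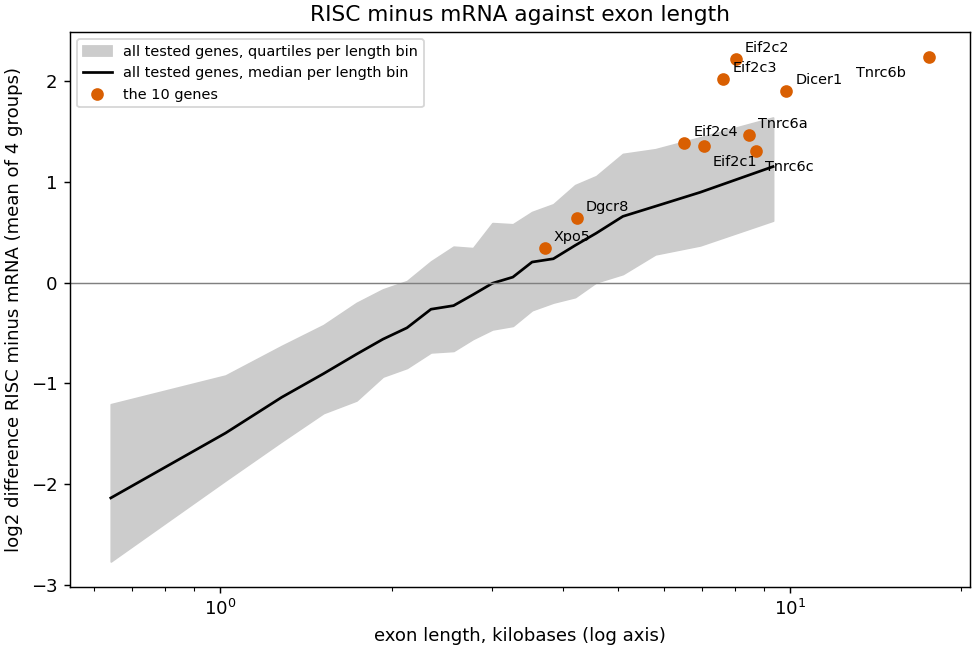
Log2 difference RISC minus mRNA (vertical axis) against exon length in kilobases (horizontal log axis). The grey band and black line are quartiles and median of all tested genes in 20 bins of length, and the orange points are the 10 genes, of which Eif2c2, Eif2c3, Dicer1 and Tnrc6b lie highest.

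Whether RISC changed more than mRNA was tested in 1 model of all libraries. By edgeR no member was called for RISC relative to mRNA, for TG against ntg (0.244% of tested genes called in sham, 0.946% in TAC) or for TAC against sham (0.0209% in ntg, 0.0278% in TG) or for the difference of the transgene effects (0.0139%). At an unadjusted p under 0.05 the members numbered 3, 2, 3, 3 and 1 of 10 in this order, beside 10.2%, 12.6%, 9.62%, 9.4% and 7.81% of tested genes. DESeq2 called 2, 2, 0, 3 and 0 members, beside 1.29%, 2.94%, 0.177%, 1.23% and 0.201% of the genes to which it gave an adjusted p. For Eif2c2 the log2 RISC minus mRNA values lay at 1.95 to 2.40 in ntg sham and 1.60 to 1.84 in TG sham hearts, which did not overlap, as 18% of genes did not. They lay at 2.43 to 2.88 in ntg TAC and 1.95 to 2.52 in TG TAC hearts, which overlapped.

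The fitted change of Eif2c2 in RISC relative to mRNA, TG against ntg, was −0.55 (SE 0.17, edgeR adjusted p = 0.176) in sham and −0.36 (SE 0.11, edgeR adjusted p = 0.0956) in TAC hearts. For TAC against sham it was 0.40 (SE 0.14, edgeR adjusted p = 0.352) in ntg and 0.59 (SE 0.14, edgeR adjusted p = 0.0918) in TG hearts. With the heart as a block, the pairing that the libraries' animal codes give, the value for the transgene in TAC hearts was −0.37 (edgeR adjusted p = 0.0427) and that for TAC in TG hearts 0.59 (edgeR adjusted p = 0.0384), so both were then called. DESeq2 called both as well (adjusted p = 0.0444 and 0.0301). With the length slope as a covariate, the value for TAC in TG hearts was called (edgeR adjusted p = 0.0377). Tnrc6b lay at 2.01 to 2.42 in ntg sham and 1.77 to 1.87 in TG sham hearts, with no overlap, as for 18% of genes. Its fitted changes for the transgene were −0.44 (SE 0.14, edgeR adjusted p = 0.183) in sham and −0.30 (SE 0.09, edgeR adjusted p = 0.0897) in TAC. For TAC against sham the Tnrc6b values were 0.29 (SE 0.12, edgeR adjusted p = 0.421) in ntg and 0.43 (SE 0.12, edgeR adjusted p = 0.134) in TG hearts. DESeq2 called the 3 of these Tnrc6b changes other than that for TAC in ntg hearts (adjusted p 0.0172 to 0.0486).

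Tnrc6c in RISC minus mRNA lay at 1.35 to 1.59 in ntg sham and 0.65 to 1.09 in TG sham hearts. These groups did not overlap, as for 18% of genes. Tnrc6c lay at 1.09 to 1.58 in TG TAC hearts, which overlapped with TG sham. Its fitted changes relative to mRNA were −0.53 (SE 0.16, edgeR adjusted p = 0.156) for the transgene in sham hearts and 0.50 (SE 0.13, edgeR adjusted p = 0.126) for TAC in TG hearts. Neither was called by edgeR, and DESeq2 called both (adjusted p = 0.0497 and 0.0390). Eif2c1 had fitted values for the transgene of 0.09 (SE 0.17) in sham and −0.16 (SE 0.11) in TAC, neither called. For TAC against sham its values were 0.41 (SE 0.14, edgeR adjusted p = 0.351) in ntg and 0.16 (SE 0.15, edgeR adjusted p = 0.806) in TG hearts.

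Other genes of the pathway, 63 in all, were counted in the same fits: partners of the microprocessor, of export and of dicing, chaperones that load argonaute, argonaute partners, deadenylation and decay factors, precursor tailing enzymes and piwi genes. In mRNA 58 were tested. For TG against ntg 5 rose and 1 fell in sham, and 7 rose and 3 fell in TAC, so that calls were no more frequent than the 18.6% and 25.3% over all tested genes. Dis3l2, an exonuclease known to degrade tailed precursors of let-7, rose by 0.47 (SE 0.09, edgeR adjusted p = 0.00104) in sham and 0.51 (SE 0.06, edgeR adjusted p = 1.05e-06) in TAC. Rqcd1, a subunit of the CCR4-NOT deadenylase, rose by 0.48 (SE 0.11, adjusted p = 0.00387) and 0.42 (SE 0.07, adjusted p = 0.000131). Adar, which edits adenosines in double-stranded RNA, rose by 0.47 in sham, as did Ipo8, an importin that binds argonautes, by 0.34. The deadenylase subunit Cnot2 fell by 0.39 in sham. In TAC hearts Fxr1 rose by 0.26 and the helicase Ddx6 by 0.19, while Cnot4 fell by 0.24, the decapping enzyme Dcp2 by 0.24 and Lsm14a by 0.16.

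After TAC 3 of the 58 pathway genes rose and 4 fell in ntg mRNA, and 0 rose and 7 fell in TG mRNA, beside 17.7% and 13.1% of all tested genes called in either direction. Mov10, an argonaute-associated helicase, rose by 0.74 (SE 0.13, edgeR adjusted p = 0.000312) in ntg hearts, with Gemin4 at 0.41 and Adar at 0.32. Patl1, a decapping activator, fell by 0.47 in ntg and 0.35 in TG, Fxr1 fell by 0.33 and 0.31, and Fkbp4, a cochaperone of Hsp90, fell by 0.32 and 0.39. Ddx5 fell by 0.27 in ntg and Srrt by 0.27 in TG hearts.

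In RISC 59 pathway genes were tested. For TG against ntg 3 rose and 0 fell in sham, and 3 rose and 7 fell in TAC, beside 5.81% and 15.2% of all tested genes called. Those that rose in sham were Hsp90aa1 (0.92, SE 0.26, edgeR adjusted p = 0.0465), Hsp90ab1 (0.50) and Dis3l2 (0.61). Dis3l2 (0.43), Ptges3 (0.49) and Hsp90ab1 (0.27) rose in TAC, where Tsnax fell by 0.32, Cnot6l by 0.34, Dcp2 by 0.27 and Pan3 by 0.38. After TAC 3 rose and 4 fell in ntg, and 0 rose and 9 fell in TG hearts, beside 10.9% and 8.56% of all tested genes. The microprocessor helicase Ddx17 fell by 0.49 in ntg and 0.58 in TG, and Fxr1 by 0.40 and 0.61. Ddx5 fell by 0.46 and Limd1 by 0.36 in ntg, while Tsnax (0.56), Mov10 (0.53) and Cnot6 (0.66) rose. Hsp90aa1 fell by 1.02 and Cnot4 by 0.54 in TG hearts. No pathway gene was called by edgeR in the differences of the transgene effect or in RISC relative to mRNA. At an unadjusted p under 0.05 there were 3 to 7 per such comparison, beside 7.81% to 12.6% of all tested genes, and DESeq2 called 0.

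Against mRNA, 36 of the 59 pathway genes were higher in RISC and 18 lower, where 38.9% of all tested genes were called higher and 82.6% in either direction. Dcp2 was highest at 3.88 (SE 0.06), above every one of the 10 genes, followed by the exonuclease Xrn1 (2.16), Dcp1a (1.82) and Cnot1 (1.28) among those named. Ran (−1.07), Srrt (−0.98), Fkbp4 (−0.92) and Fxr2 (−0.86) were lower. The median of the 59 was 0.31, against 1.43 for the 10 genes and −0.08 for all.

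Genes whose levels ran most like that of Eif2c2 were sought by Pearson's r of log2 CPM over 20 libraries of 1 kind, which share the 4 groups, as a description. Over 10160 genes in mRNA they were Gbf1 (0.89), Mapk1ip1l (0.88), Clec16a (0.87), Agfg1 (0.85) and Atg9a (0.85). Over 7923 genes in RISC they were Cmtm4 (0.94), Nfia (0.93), Tnrc6b (0.93), Aak1 (0.92) and Tacc1 (0.92). Eif2c1 stood at −0.55 to Eif2c2 in mRNA and 0.84 in RISC. When group means were taken out, r between Eif2c1 and Eif2c2 was 0.57 in mRNA and 0.60 in RISC, and r between Eif2c2 and Tnrc6b was 0.57 and 0.81. The length slope ran from −0.110 to 0.129 over the 20 RISC libraries, and its part in these correlations was not tested.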

How the data were processed

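Polyadenylated RNA and Ago2-bound RNA were sequenced from 20 hearts (40 libraries, single-end and not strand-specific per the labels' protocols). Each deposited file holds 1 library as raw read counts by gene symbol. Per the submitters' processing notes the authors used HTSeq for counting, Bowtie2, TopHat and TopHat2 2.0.10 as aligners, and mm10 as the build, and they also name DESeq and edgeR. The deposited gene models gave positions and exon lengths. Rows of no gene were left out (on average 11.5% of mRNA reads and 4.09% of RISC reads), and the combined tables were not used here. How reads shared between near-identical genes were handled is not stated.

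Counts were filtered with filterByExpr, scaled with TMM and tested in R 4.3.3 with edgeR 4.0.16 (quasi-likelihood, robust; Benjamini-Hochberg over all tested genes, threshold 0.05). There were 3 models, mRNA, RISC and both together, each over all 4 groups, and 16 comparisons. RISC relative to mRNA is the difference of 2 log2 fold changes. SE is the size of the log2 fold change over the square root of F, and 95% intervals use the normal distribution. Log2 CPM used a prior count of 2. Groups come from the titles. The animal code joins the 2 libraries of a heart: their residuals correlated above 0.1 in 15 of 20 hearts (median 0.174, 7799 genes). No 2 libraries agreed within counting noise (chi-square per degree of freedom at least 2.31). The biological coefficient of variation was 12.9% in mRNA and 16.6% in RISC. The depth sets the precision of each value.

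The members and lists were chosen with earlier results of these data known. All members were named in every comparison; of the pathway list, up to 4 called genes per direction with the lowest adjusted p; and the 5 genes most like Eif2c2 among those of at least 5 CPM. The scripts were tested on simulated data. Alternatives were RLE scaling, DESeq2 1.42.0, no filter, a replicate block, covariates for length slope or adipocyte level, Rn45s left out and each heart left out; those without the hearts of the 2 shallowest RISC libraries and with total-count scaling were added after seeing the data.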

Additional observations from a re-analysis of the deposited data

Results flagged for a closer look

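Of 60 groups of 7 hearts examined for a value far from the others, 4 had one, and chance alone gives about 1 in 20. Eif2c1 RISC minus mRNA in ntg TAC heart 3 was the lowest of its group at 1.28, while the others lay at 1.57 to 1.71. Tnrc6a in RISC of ntg TAC heart 4 was the highest at 129.7 CPM, with the others at 97.1 to 111 CPM. Dicer1 RISC minus mRNA in TG TAC heart 4 was the highest at 2.28, with the others at 1.78 to 1.96. Tnrc6b in mRNA of TG TAC heart 5 was the highest at 168.5 CPM, with the others at 145 to 150.5 CPM.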

How the results depend on the processing

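Calls over all genes moved in several of the fits below too, as listed in the next paragraph. Member counts alone therefore show no change particular to the members. The member counts called (1, 1, 1 and 1 in mRNA and 1, 1, 2 and 4 in RISC for TG in sham, TG in TAC, TAC in ntg and TAC in TG) moved as follows. With DESeq2 they were 3 for TG in sham mRNA and 2 for TG in TAC RISC, and in RISC relative to mRNA 2, 2 and 3 for TG in sham, TG in TAC and TAC in TG, where edgeR called 0. With the adipocyte covariate they were 0, 2 and 0 in the first 3 mRNA comparisons. With the length slope covariate they were 0 for TG in TAC RISC and for TAC in ntg RISC, and 1 for TAC in TG in RISC relative to mRNA. RLE scaling and leaving out Rn45s each gave 2 for TG in TAC RISC. The replicate number as a block, which does not pair hearts across genotypes (same-numbered hearts correlated above 0.1 in 0 of 3 and 2 of 7 pairs in mRNA, and 0 of 3 and 4 of 7 in RISC), gave 0 for both TAC comparisons in mRNA, 2 for TG in TAC RISC, 1 for TAC in ntg RISC and 2 for TAC in TG RISC. The heart as a block gave 1 for TG in TAC and 1 for TAC in TG in RISC relative to mRNA. Total-count scaling reversed 2 RISC minus mRNA values, Dgcr8 to −0.47 and Xpo5 to −0.76.

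With 1 heart left out the member counts ran from 1 to 2, 1 to 3, 0 to 1 and 0 to 1 in mRNA and 0 to 1, 1 to 2, 1 to 2 and 1 to 4 in RISC. The shares of all genes called in those fits are not given here. Counts over all genes were, with the length slope, 175 for TG in TAC RISC (2050 in the fit reported) and 195 for TAC in ntg RISC (1470). They were 988 and 931 with the adipocyte covariate (2627 for TG in sham mRNA, 2505 for TAC in ntg mRNA), and with the replicate block 1062 for TAC in TG mRNA (1857), 840 for TAC in ntg RISC (1470) and 685 for TAC in TG RISC (1151). DESeq2 gave 73 (12 in the fit reported) and 126 (46) for the difference of the transgene effects in mRNA and RISC, where the adipocyte covariate gave 0 in mRNA and the length slope 9 in RISC. In RISC relative to mRNA the counts of 35, 136, 3, 4 and 2 (TG in sham, TG in TAC, TAC in ntg, TAC in TG, difference) became 121, 332, 19, 88 and 25 with DESeq2, 68, 236, 0, 34 and 5 with the heart as a block, 87, 12, 1, 24 and 0 with the length slope, 12, 37, 2, 0 and 0 with total-count scaling, and 39, 213, 2, 1 and 0 with that scaling and Rn45s left out. The cause was not tested. With 3 sham hearts per genotype, calls against sham rest on few libraries.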
